A study of Mus musculus with 6 samples.

Results

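The alpha chain of the T cell receptor is built from 1 TRAV and 1 TRAJ gene segment, and the 133 segment names described here are all those that the deposited receptor contig tables assign to TRA chains. They comprise 90 TRAV and 43 TRAJ names, beside 34 names of the beta chain loci in the same tables and 32285 genes in the expression matrices. T cells had been sorted as CD3+ with CD4 or CD8 from intracranial tumors of CT2A, a mouse glioma line, and profiled with 10x Genomics 5' chemistry. All animals were wild-type C57BL/6J mice of 6 to 8 weeks of age. The early group was taken on day 13 from 16 mice, pooled by 4 for each replicate, and the late group on day 19 from 4 mice. Each day has 1 expression and 1 receptor library, with 4 contig tables per day, called sets here, and the labels do not say what divides them. The series concerns how T cells in glioma move from progenitor to terminal exhaustion, and no treatment was compared.

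In developing T cells, recombination joins a TRAV segment to a TRAJ segment, and bases can be trimmed or added at the joint. The resulting loop, the third complementarity-determining region (CDR3), mostly faces the presented peptide, whereas CDR1 and CDR2 are encoded by the TRAV segment alone and mostly face the MHC molecule. The TRA locus can rearrange repeatedly on the same chromosome, each time joining a TRAV farther upstream to a TRAJ farther downstream. CD8 T cells recognise MHC class I and CD4 T cells MHC class II, and a few alpha chains, such as that of invariant NKT cells, are fixed for other presenting molecules.

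The sets held 8359 barcodes on day 13 and 4295 on day 19, with 8084 and 4467 TRA contigs. A barcode carried no TRA contig in 13.5% of cases on day 13 and 10.5% on day 19, and 2 of them in 10.2% and 14.6%. TRA contigs had a median of 5 UMIs (unique molecular identifiers, which count captured molecules) on day 13 and 7 on day 19. Cells with exactly 1 TRA and 1 TRB contig formed 6567 clonotypes, defined per day by identical CDR3 nucleotide sequences of both chains. Of these, 3425 held a barcode that also passed the cell filters of the expression matrix, and the comparisons of classes, Foxp3, expansion and days within a class use them. Overall usage, TRAV and TRAJ position by day, the invariant pairs and sharing between days use all 6567. No barcode occurred in more than 1 set of a day, and 58 occurred on both days.

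A cell was put in the CD8 class if it carried Cd8a or Cd8b1 UMIs without any Cd4 UMI, and in the CD4 class in the reverse case. A clonotype took the class of most of its classed cells, which gave 2075 CD8 and 729 CD4 clonotypes. The 7 T cell markers checked were present in both classes, at a summed level of 3541 CPM (UMIs of a gene scaled to a fixed library total) in CD8 cells on both days and of 2341 and 2860 CPM in CD4 cells. All 7 myeloid markers were higher in the CD4 class on both days. Their summed level was 4633 CPM on day 13 and 4856 CPM on day 19 in CD4 cells, against 1284 and 1490 CPM in CD8 cells. All 5 dendritic and all 5 B and plasma cell markers were also higher in CD4 on both days, at summed levels of 130 and 93.7 CPM against 31.8 and 24.1, and of 79.3 and 13.0 CPM against 3.04 and 4.26. Of 5 gamma-delta T cell marker symbols, the 3 with UMIs, Trdc, Tcrg-C1 and Tcrg-C2, were all higher in CD8. Their sum was 23.8 and 45.5 CPM in CD8 against 4.45 and 3.56 in CD4. Trgc1 and Trgc2 had 0 UMIs, which is also the value given to a symbol that the matrix lacks. Median depth was 10354 UMIs in CD4 and 8903 in CD8 cells. The part of this RNA in the class results was not tested; for the myeloid list the values are also given from cells with at most 1 myeloid UMI. With 1 capture per day no test between groups was possible, so intervals are exact 95% intervals for counting error only, and the spread over sets stands beside them without being replicate error.

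Usage was spread over many TRAV segments and fewer TRAJ segments. RefSeq lists 130 TRAV and 60 TRAJ segments on chromosome 14 of GRCm38.p6, at 52427967 to 53977678 and 54155005 to 54218842. The contigs used 90 and 43 of them. Of the 17 TRAJ segments without a contig, 9 are annotated as pseudogenes, and of the 40 TRAV segments 16 are. Among the 6567 clonotypes, 21 TRAV names or 13 TRAJ names held 50%, and the 10 commonest held 29.97% and 41.1%. TRAV3D-3 was the commonest TRAV, with 263 clonotypes or 4.00% (interval 3.54 to 4.51%). It was followed by TRAV6-6 with 3.72%, TRAV12-2 with 3.46%, TRAV13-1 with 3.44% and TRAV7D-2 with 3.38%. The next 5 were TRAV16N, TRAV6N-7, TRAV9D-3, TRAV10 and TRAV5-4, between 2.83 and 2.19%. The intervals of neighbours in this order overlapped. TRAJ22 stood first among TRAJ genes with 417 clonotypes or 6.35%, ahead of TRAJ23 with 4.89%, TRAJ26 with 4.55% and TRAJ31 with 4.14%. TRAJ30, TRAJ49, TRAJ21, TRAJ15, TRAJ37 and TRAJ12 followed, between 3.79 and 3.27%, and the rarest TRAJ had 22 clonotypes.

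Many TRAV names are near copies, since the mouse locus holds repeated blocks whose copies carry D or N in their names. Over the sequence from the first framework region to the third, 42 of 89 names with a complete sequence were at least 98% identical to another name, and 8 were identical to one. Copies were therefore also summed into 20 subgroups, the number after TRAV. TRAV6 held 14.6% of clonotypes over 13 names, TRAV7 13.1% over 12, TRAV12 10.6%, TRAV14 10.3%, TRAV13 9.49% and TRAV9 8.38%. TRAV15 held 0.472% and TRAV18 had 2 clonotypes.

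TRAV16, TRAV12 and TRAV3 were used more by CD8 clonotypes, and TRAV4 and TRAV7 more by CD4 clonotypes, at both days. A subgroup was compared if it had at least 30 clonotypes and was said to differ if the shares differed by a ratio of at least 1.5. By this rule 7 of 13 subgroups differed (53.8%), 4 higher in CD8 and 3 higher in CD4, and the ratio's interval excluded 1 for 5 of them. For the beta chain 9 of 16 TRBV subgroups differed (56.2%) and 2 of 12 TRBJ genes (16.7%), so the count for TRAV lay near that for TRBV.

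TRAV16 made up 174 of 2075 CD8 clonotypes (8.39%) and 20 of 729 CD4 clonotypes (2.74%), a CD8 to CD4 ratio of 3.06 (1.92 to 5.13). Its lowest, median and highest share over the 8 sets were 4.22, 8.38 and 12.6% in CD8 and 0, 2.52 and 5.43% in CD4. CD8 was higher within each of the 8 sets, although the ranges overlapped. TRAV12 made up 13.6% of CD8 and 5.90% of CD4 clonotypes, a ratio of 2.31 (1.67 to 3.27). Its set shares were 10.9, 13.4 and 20.1% in CD8 and 3.57, 5.53 and 8.86% in CD4, so the ranges did not overlap. TRAV3 had 6.46 and 3.84%, a ratio of 1.68 (1.11 to 2.63) with CD8 higher in 8 of 8 sets. TRAV19, the other subgroup higher in CD8, had 35 and 5 clonotypes and an interval of 0.959 to 8.04 around its ratio of 2.46.

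TRAV4 ran the other way. It made up 3.42% of CD8 and 8.23% of CD4 clonotypes, a ratio of 0.416 (0.291 to 0.596), with set shares of 1.65, 3.11 and 7.17% in CD8 and 6.36, 7.38 and 12.7% in CD4. CD4 was higher in 7 of 8 sets, and the CD8 maximum lay above the CD4 minimum. TRAV7 had 10.2 and 16.6%, a ratio of 0.616 (0.490 to 0.776), with set shares of 7.84, 8.69 and 13.0% in CD8 and 13.95, 17.1 and 17.9% in CD4. These ranges did not overlap. With cells in place of clonotypes, where 1 large clonotype can carry a share, the TRAV7 ratio was 0.804, under the threshold. TRAV5 had a ratio of 0.656 with an interval up to 1.00, and 0.813 over cells, under the threshold. TRAV9 and TRAV14, with ratios of 1.41 and 0.767, stayed under the threshold.

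In cells with at most 1 myeloid UMI, 1684 CD8 and 347 CD4 clonotypes remained. There the ratios were 2.20 for TRAV16, 3.21 for TRAV12, 0.470 for TRAV4 and 0.581 for TRAV7. TRAV3, at 1.49, and TRAV5, at 0.883, then stayed under the threshold, whereas TRAV9 passed it at 1.55, and TRAV19 had 30 CD8 and 0 CD4 clonotypes. Day by day, TRAV16 had ratios of 2.64 and 3.79 on day 13 and day 19, TRAV12 of 2.19 and 2.52, and TRAV4 of 0.411 on both.

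**Figure D1:**
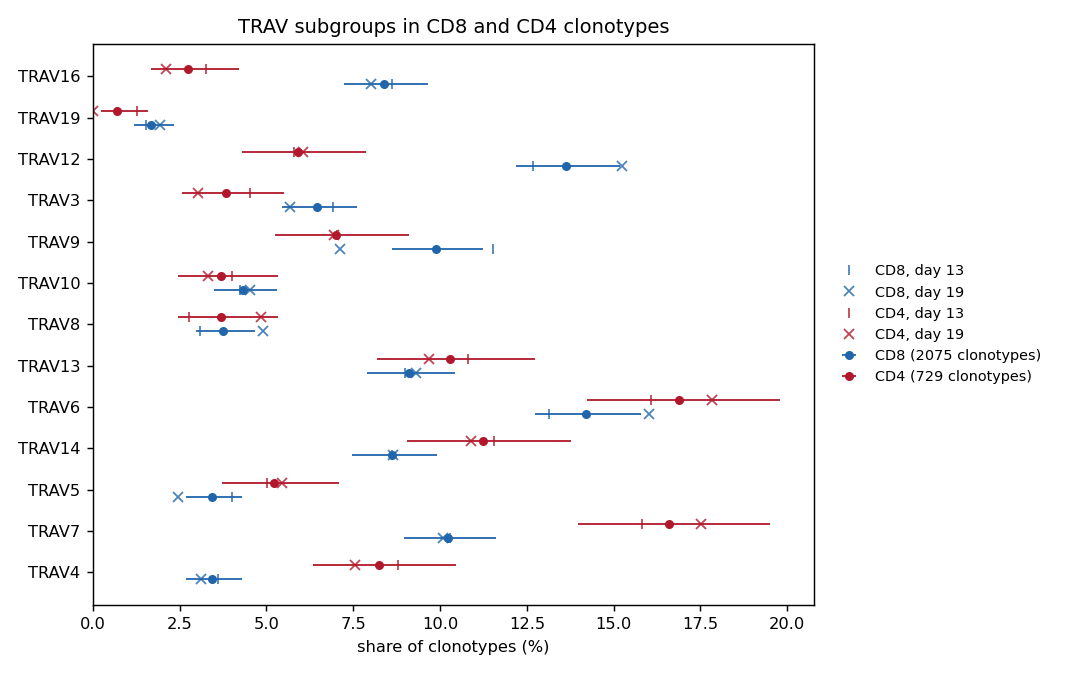
Share of clonotypes (%, x axis) for each TRAV subgroup with at least 30 clonotypes (y axis), in CD8 clonotypes (blue) and CD4 clonotypes (red). Dots are both days together with exact 95% intervals for counting error, ticks are day 13 and crosses day 19, and TRAV16, TRAV12 and TRAV3 lie higher in CD8 on both days, TRAV4 and TRAV7 higher in CD4.

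The subgroups at the ends of this order also differ in the TRAV-encoded loops. The deposited contigs give TRAV16 a CDR1 of 7 and a CDR2 of 8 residues, and TRAV4 loops of 5 and 5. The loop sequences are shown for TRAV16N and TRAV4D-4 with TRAV12-1 and TRAV7D-2, names of the subgroups that differed, chosen after their values were seen. All letters are lower case, since no base is marked.
TRAV16N CDR1: acccgggacagttcttacttc
TRAV16N CDR2: caggactcttacaaaaaggaaaat
TRAV12-1 CDR1: actacttatttaactattgcc
TRAV12-1 CDR2: agctccacagacaacaagagg
TRAV7D-2 CDR1: gatcgtaatgttgactac
TRAV7D-2 CDR2: atcttctccaatggtgaa
TRAV4D-4 CDR1: accaccatgagggct
TRAV4D-4 CDR2: ttggcttcaggaaca
A CDR2 of 8 residues was carried by 19.1% of CD8 (17.5 to 20.9%) and 10.97% of CD4 clonotypes (8.80 to 13.5%). A CDR1 of 5 residues was carried by 16.3% of CD8 (14.8 to 18.0%) and 22.2% of CD4 clonotypes (19.3 to 25.4%). Every subgroup with a CDR2 of 8 or a CDR1 of 5 residues had that length in all its names, so these shares restate subgroup usage in another measure. Other loop lengths varied within a subgroup, as for the CDR1 of TRAV6 with 6 to 8 residues.

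Single names within a subgroup did not all follow it. Of 39 names with at least 30 clonotypes, 23 differed by the ratio of 1.5, with 14 higher in CD8 and 9 higher in CD4, and 12 with an interval that excluded 1. The names in this paragraph were chosen after their values were seen. TRAV12-1 had 48 CD8 and 2 CD4 clonotypes, a ratio of 8.43 (2.21 to 71.6), and TRAV12-2 had a ratio of 3.10 (1.66 to 6.41), while TRAV12-3 had 0.703. All TRAV16 names leaned to CD8, with ratios of 2.46 for TRAV16, 2.95 for TRAV16N and 5.97 for TRAV16D-DV11. TRAV9D-3 had 3.86% in CD8 and 0.960% in CD4, a ratio of 4.02 (1.86 to 10.3).

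Within TRAV7, TRAV7D-2 had the most clonotypes of both classes together. Its sequence equals that of TRAV7-2 over all 264 bases, from the first framework region to the third, and 569 contigs bear the first name and 1 the second. The leader was not compared. In the expression matrix 11.5% of TRAV7D-2 cells had a UMI of that name. It made up 49 CD8 (2.36%) and 50 CD4 clonotypes (6.86%), a ratio of 0.344 (0.227 to 0.521), and was higher in CD4 in 8 of 8 sets. Without it the TRAV7 ratio was 0.769 (0.579 to 1.03). The 50 CD4 clonotypes used 23 TRAJ genes, most often TRAJ37 with 11, and 19 of them were Foxp3-positive by the rule given with the Foxp3 comparison, whereas TRAJ7 was the commonest partner among the 49 CD8 clonotypes with 8. TRAV4D-4 had 7 CD8 and 21 CD4 clonotypes, too few in total for the comparison, and without it the TRAV4 ratio was 0.562 (0.372 to 0.859). Its near copy TRAV4-4-DV10, like TRAV4D-4 named after values were seen, has the same CDR1 and CDR2 and differs from it at 8 of 258 bases, and had a ratio of 0.505 (0.255 to 1.02).

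TRAJ genes also divided the classes. By the same rule 16 of 37 TRAJ genes differed (43.2%), 10 higher in CD8 and 6 higher in CD4, with 10 intervals that excluded 1. The bases that each of 5 of these TRAJ genes gave to the end of the CDR3, that is the end shared by at least 50% of the distinct CDR3 of that gene in the contig tables, are shown because they set the loop the classes differ in.
TRAJ47 end: ggactatgcaaacaagatgatcttt
TRAJ22 end: atcttctggcagctggcaactcatcttt
TRAJ26 end: taactatgcccagggattaaccttc
TRAJ7 end: gactacagcaacaacagacttactttg
TRAJ37 end: aacaggcaataccggaaaactcatcttt
TRAJ22 was carried by 177 CD8 (8.53%) and 24 CD4 clonotypes (3.29%), a ratio of 2.59 (1.69 to 4.15). Its lowest, median and highest set shares were 6.04, 8.10 and 10.2% in CD8 and 0, 2.15 and 8.18% in CD4, with CD8 higher in 7 of 8 sets. The CD8 share was 8.53% on both days, and the ratio was 1.79 on day 13 and 5.64 on day 19, where the CD4 share was 1.51% instead of 4.77%.

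TRAJ26 and TRAJ30 were higher in CD8 in 8 of 8 sets. TRAJ26 had 6.27 and 3.02%, a ratio of 2.08 (1.31 to 3.43), and TRAJ30 4.48 and 2.19%, a ratio of 2.04 (1.19 to 3.72). TRAJ47 had the highest ratio, 3.86 (1.41 to 14.8), from 44 CD8 and 4 CD4 clonotypes. It rested on few CD4 clonotypes: the ratio was 6.995 without set 4 of day 13, 2.75 on day 13 and 7.27 on day 19, and 2.40 in cells with at most 1 myeloid UMI, where TRAJ7 had 3.09. After TRAJ22, at 2.59, came TRAJ24 with 2.46 (0.959 to 8.04), TRAJ7 with 2.15 (1.24 to 4.01) and TRAJ49 with 2.11 (1.21 to 3.92). The value for TRAJ7 depended on the day, with 4.21 on day 13 and 1.44 on day 19, and was 4.82 with cells in place of clonotypes.

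TRAJ37 showed the reverse and the lowest ratio of all TRAJ genes compared. It was carried by 44 CD8 (2.12%) and 56 CD4 clonotypes (7.68%), a ratio of 0.276 (0.182 to 0.417). Set shares were 0.980, 2.04 and 3.88% in CD8 and 2.73, 7.33 and 11.9% in CD4, and CD4 was higher in 8 of 8 sets. The ratio was 0.293 on day 13 and 0.281 on day 19, and 0.432 with every barcode of the sets, without the cell filters. Its 56 CD4 clonotypes used 23 TRAV names, with TRAV7D-2 in 11 of them. TRAJ6 followed with 0.390 (0.196 to 0.783), TRAJ40 with 0.522 (0.334 to 0.826), TRAJ27 with 0.582 (0.359 to 0.956) and TRAJ18 with 0.618 (0.370 to 1.05). TRAJ27 reversed to 1.29 when cells were counted in place of clonotypes, and TRAJ18 moved to 0.970 over cells and to 0.775 without TRAV11 clonotypes. In cells with at most 1 myeloid UMI, TRAJ22 had 2.47, TRAJ26 2.12, TRAJ30 2.18 and TRAJ37 0.318, while TRAJ27 stayed under the threshold at 0.805.

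**Figure D2:**
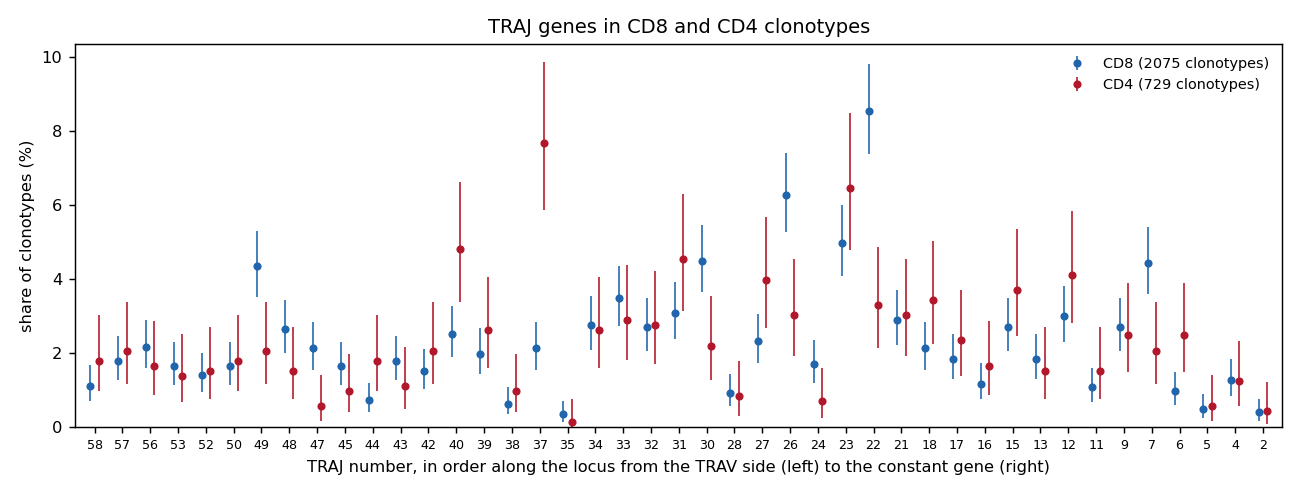
Share of clonotypes (%, y axis) for each TRAJ gene in the order of the locus (x axis), in CD8 (blue) and CD4 (red) clonotypes of both days with exact 95% intervals for counting error. TRAJ22 stands highest in CD8 at 8.53% and TRAJ37 highest in CD4 at 7.68%.

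A second readout of the same cells, the Trav UMIs of the expression matrix, gave the same direction for 6 of the 7 subgroups that differed, TRAV3 being the other, with cells in place of clonotypes as the unit. Of the 4659 paired cells, 80.6% had a Trav UMI, 69.0% one of the subgroup of their contig and 65.2% one of the same name. TRAV16 contig cells had a TRAV16 UMI in 98.3% of cases and other cells in 2.13%, whereas TRAV3 contig cells had one in 20.3% and TRAV11 contig cells in 0 of 50, which allows up to 6%. In 11 names with contigs no UMI was counted, among them TRAV6-6 with 424 contigs and TRAV13D-2 with 390. Names at least 98% identical to another matched in 60.8% of cells, the rest in 70.4%.

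Over all called cells in the sets, TRAV16 UMIs were found in 10.1% of 4164 CD8 and 5.21% of 1421 CD4 cells, a ratio of 1.94 (1.51 to 2.52). TRAV12 had 14.6 and 7.11%, a ratio of 2.05 (1.66 to 2.55), TRAV4 5.02 and 8.52%, a ratio of 0.589 (0.469 to 0.744), and TRAV3 a ratio of 0.841 (0.676 to 1.05). TRAV19 had a ratio of 2.15 (1.19 to 4.21). TRAV7, with 0.839 (0.714 to 0.989), and TRAV5, with 0.811 (0.626 to 1.06), stayed under the threshold of 1.5. Cells without a TRA contig, which are in none of the contig counts, carried TRAV16 UMIs in 16 of 300 CD8 and 0 of 100 CD4 cells, which allows up to 3%. TRAV12 UMIs were in 24 and 1 of them. TRAV4 UMIs were in 9 and 3 of them, the same share in both classes. TRAV19, with 4 and 1 cells, and TRAV7, with 14 and 6, had ratios of 1.33 (0.132 to 65.7) and 0.778 (0.281 to 2.47), and TRAV5 had 0.222 (0.0186 to 1.94). TRAV3 UMIs were in 81 and 18 of them.

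Counted by clonotypes, fewer segments passed the ratio of 1.5 between days than between classes. With cells in place of clonotypes, 16 TRAJ genes differed between days in CD8. In CD8 clonotypes, 1301 on day 13 and 774 on day 19, 3 of 13 TRAV subgroups differed (23.1%) and 5 of 31 TRAJ genes (16.1%), and the interval excluded 1 only for TRAV9. TRAV9 fell from 11.5% on day 13 to 7.11% on day 19, a ratio of 0.616 (0.444 to 0.845). Its 4 set shares ranged from 9.89 to 12.9% on day 13 and from 5.49 to 9.80% on day 19, and the ranges did not overlap. TRAV5 had a ratio of 0.614 (0.343 to 1.06) and TRAV8 of 1.60 (0.997 to 2.55). TRAJ17, TRAJ39 and TRAJ37 had ratios from 1.68 to 1.53, and TRAJ32 and TRAJ13 of 0.615 and 0.600, all with intervals that held 1. When every barcode of the sets was used, without the cell filters, no TRAV subgroup passed the ratio of 1.5. In CD4 clonotypes, 398 and 331, 0 of 8 TRAV subgroups differed (0%) and 2 of 5 TRAJ genes (40%), TRAJ23 with 1.62 (0.877 to 3.05; 1.04 over cells) and TRAJ37 with 1.60 (0.915 to 2.84). Day, capture and the number of mice per pool cannot be told apart.

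Among CD4 clonotypes, TRAJ23 was commoner and TRAV14 rarer in those whose cells carried Foxp3, the defining factor of regulatory T cells. A clonotype was Foxp3-positive if at least 50% of its CD4 cells had a Foxp3 UMI, which gave 262 positive and 467 negative clonotypes. Foxp3 UMIs occurred in 34.1% of CD4 cells and in 3.07% of CD8 cells, at the median depths above, and the part of free RNA in the positive calls was not tested. TRAJ23 was used by 26 positive (9.92%) and 21 negative clonotypes (4.50%), a ratio of 2.21 (1.19 to 4.13), with set shares of 4.35, 9.88 and 14.3% against 2.38, 4.63 and 7.14%. It was higher in the positive clonotypes in 7 of 8 sets, with overlapping ranges. TRAV14 was used by 7.25 and 13.5%, a ratio of 0.538 (0.304 to 0.910), with the lower share on the positive side in 6 sets. Over cells its ratio was 0.787, under the threshold. TRAJ40 had 0.528 (0.207 to 1.20). In cells with at most 1 myeloid UMI, TRAJ23 had 3.33 (1.21 to 9.97), TRAJ40 0.882 and TRAV14 0.626 (0.274 to 1.31). TRAJ23 then had 19 CD4 clonotypes, too few for the comparison, so no TRAJ gene was called there. These were 1 of 8 TRAV subgroups (12.5%) and 2 of 5 TRAJ genes (40%) that had enough clonotypes. TRAJ37 was at 9.16 and 6.85% and TRAV4 at 9.92 and 7.28%, so neither passed the ratio of 1.5, although over cells both did, with 1.53 and 1.54.

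TRAJ7 was concentrated in expanded CD8 clonotypes. An expanded clonotype had at least 3 called cells, and 111 CD8 clonotypes were expanded against 1872 with 1 cell. TRAJ7 was used by 22 expanded clonotypes (19.8%) and by 62 single ones (3.31%), a ratio of 5.98 (3.503 to 9.87). Its set shares were 8.33, 22.8 and 54.5% in expanded and 1.24, 3.08 and 6.21% in single clonotypes, so the ranges did not overlap. A clonotype found in more than 1 set was counted in each, and a TRAV9D-3 clonotype of 12 cells occurred in 4 sets. The shares were 18.3 and 3.24% on day 13 and 22.5 and 3.43% on day 19. With cells in place of clonotypes, TRAJ7 was carried by 213 of 852 cells of expanded clonotypes.

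By clonotype size the share of TRAJ7 was 3.31% with 1 cell, 8.70% with 2 cells, 17.6% with 3 to 9, and 6 of 20 clonotypes with 10 or more (11.9 to 54.3%). In CD4 clonotypes the shares were 2.00, 1.54, 3.51 and 0%, where the largest class held 7 clonotypes. By the ratio rule 20 of 30 TRAJ genes differed between expanded and single clonotypes (66.7%), 4 higher and 16 lower. Each of the 16 lower ones had 0 to 2 expanded clonotypes. Over cells, TRAJ27 reversed from 0.375 to 3.52 and TRAJ12 from 0.592 to 1.43, and TRAJ21 passed from 0.613 to 0.839. The interval excluded 1 only for TRAJ7. TRAJ37, TRAJ33 and TRAJ18 had ratios of 2.34, 2.21 and 1.73 from 5, 8 and 4 expanded clonotypes. They were higher in 4, 4 and 2 of the 8 sets, so the sets did not share a direction, and over cells TRAJ33 had 1.33, under the threshold. TRAJ45 and TRAJ40 had 0 of 111, which allows up to 2.703%, and TRAJ49 and TRAJ32 followed with 1 each. Of the TRAV subgroups 6 of 13 differed (46.2%), none with an interval that excluded 1. TRAV9, at 15.3 against 9.62%, was higher in 8 of 8 sets with a ratio of 1.59 (0.908 to 2.62). With cells in place of clonotypes its share was 9.62% in both, a ratio of 1.00, and without set 2 of day 19 the ratio of clonotypes was 1.495, under the threshold. TRAV4 had 1.58, TRAV14 0.602, TRAV13 0.575 and TRAV5 0.252, and TRAV19 had 0 of 111. Over cells TRAV4 had 1.41 and TRAV5 1.05, both under the threshold.

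**Figure D3:**
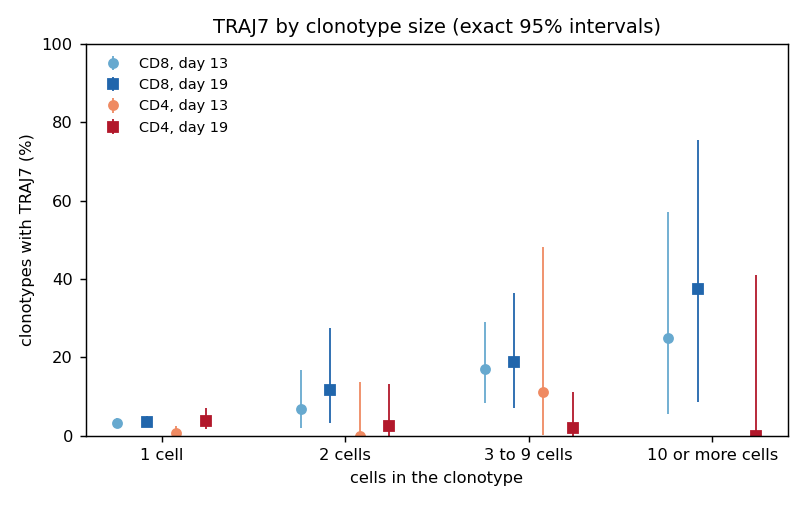
Share of clonotypes that use TRAJ7 (%, y axis) by the number of called cells in the clonotype (x axis), for CD8 and CD4 clonotypes of day 13 and day 19, with exact 95% intervals for counting error. The CD8 share is 3.24% on day 13 and 3.43% on day 19 with 1 cell, and 3 of 12 and 3 of 8 clonotypes with 10 or more cells use TRAJ7.

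The TRAJ7 clonotypes were not 1 receptor. The 22 expanded ones used 12 TRAV names, 4 of them TRAV7D-2 and 3 TRAV7D-2 with TRBV16. Without TRAV7D-2 the share was 16.98% against 3.17%. The 5 distinct CDR3 of the 6 largest are shown, to let the shared TRAJ7 end be compared across TRAV names. Capitals mark bases outside both the start shared by at least 50% of the CDR3 of that TRAV name and the end likewise shared for TRAJ7.
TRAV7D-2, day 19, 49 cells: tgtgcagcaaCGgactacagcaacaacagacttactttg
TRAV7D-2, day 13, 35 cells: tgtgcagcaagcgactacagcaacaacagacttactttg
TRAV7-3, day 13, 12 cells: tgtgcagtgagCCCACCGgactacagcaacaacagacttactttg
TRAV9D-3, day 13, 12 cells: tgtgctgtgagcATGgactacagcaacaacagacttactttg
TRAV12D-3, day 19, 11 cells: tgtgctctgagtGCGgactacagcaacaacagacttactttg
The CDR3 with 49 cells occurred in a further day 19 clonotype of 28 cells with another TRB CDR3 sequence. Both used TRBV16 with TRBJ2-7, as did the day 13 clonotype of 35 cells. The letters cg directly before gact, read on the coding strand, were found in 9 of 22 expanded CD8 (20.7 to 63.6%), 15 of 62 single CD8 (14.2 to 36.7%) and 2 of 15 CD4 clonotypes with TRAJ7. The intervals overlapped, and this motif too was noticed after the sequences were seen.

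Usage along the TRAJ locus was compared between expanded and single CD8 clonotypes with and without TRAJ7. The 14 TRAJ genes nearest the constant gene, TRAJ21 to TRAJ2, were used by 42.3% of expanded (33.0 to 52.1%) and 25.9% of single CD8 clonotypes (23.9 to 28.0%), and by 28.1% (19.1 to 38.6%) and 23.4% (21.4 to 25.4%) when TRAJ7 was left out, with overlapping intervals. The 15 TRAJ genes nearest the TRAV segments, TRAJ58 to TRAJ39, were used by 14.4% of expanded (8.47 to 22.4%) and 29.97% of single clonotypes (27.9 to 32.1%). Without TRAJ7 these were 17.98% (10.6 to 27.5%) and 30.99% (28.9 to 33.2%).

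The largest clonotypes, counted here over all paired barcodes of the sets, used various segments. On day 13 the 5 largest held 44, 36, 35, 34 and 32 cells and joined TRAV16N to TRAJ26, TRAV16N to TRAJ18, TRAV7D-2 to TRAJ7, TRAV5-1 to TRAJ12 and TRAV7-1 to TRAJ23. On day 19 they held 75, 51, 50, 29 and 28 cells and joined TRAV6D-5 to TRAJ27, TRAV7D-2 to TRAJ7, TRAV6-7-DV9 to TRAJ31, TRAV7D-2 to TRAJ7 and TRAV8-1 to TRAJ26. The TRAV6-7-DV9 clonotype had 44 CD4 cells, and the others were CD8. Of these, 4 are shown, 2 per day, to set short beside long joints, with capitals as above.
TRAV16N to TRAJ26, day 13, 44 cells: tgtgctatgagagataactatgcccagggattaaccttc
TRAV16N to TRAJ18, day 13, 36 cells: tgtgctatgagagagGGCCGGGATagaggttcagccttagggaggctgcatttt
TRAV6D-5 to TRAJ27, day 19, 75 cells: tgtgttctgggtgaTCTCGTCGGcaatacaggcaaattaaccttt
TRAV6-7-DV9 to TRAJ31, day 19, 50 cells: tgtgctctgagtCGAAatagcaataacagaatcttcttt
Of the 6567 clonotypes, 629 had 2 or more cells, and 627 of these had the same TRAV name in every cell. Of the 629, 126 (20.0%) occurred in 2 or more sets of the day.

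TRAV segments near the TRAJ genes joined mainly to the nearest TRAJ genes. Over the 6567 clonotypes the Spearman correlation of TRAV position and TRAJ number was 0.471. It was 0.480 in the 3425 called clonotypes, and ranged from 0.466 to 0.515 over the 8 sets. It was 0.509 in CD8 and 0.411 in CD4 clonotypes, all called. Over all clonotypes of a day it was 0.468 on day 13 (4628 clonotypes) and 0.478 on day 19 (1939). The points share a library and a depth, and these values are a description.

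Grouped by position, the farther and middle names had like median partners, and the nearest names a higher one. The 30 TRAV names farthest from the TRAJ genes had a median partner of TRAJ23, the 30 in the middle TRAJ22 and the 30 nearest TRAJ39. Position is that of the assigned name. TRAV7D-2, with 222 clonotypes and at 1471 kb, equals TRAV7-2, at 764 kb, over the bases compared, which therefore do not fix its place. The same holds for TRAV6-3 with TRAV6D-3, TRAV6-5 with TRAV6N-5 and TRAV11 with TRAV11D. The 15 TRAJ genes nearest the TRAV segments took 13.8% of the farthest (12.2 to 15.6%), 12.9% of the middle (11.5 to 14.4%) and 50.02% of the nearest clonotypes (48.1 to 51.9%). The 14 TRAJ genes nearest the constant gene took 40.9, 42.0 and 12.7%. Within the nearest 30 names the median partner went from TRAJ31 for TRAV6-5, at 663 kb, through TRAJ34 for TRAV12-2 and TRAJ47 for TRAV16 to TRAJ52 for TRAV21-DV12, at 278 kb. The D copies, at a median distance of 1269 kb, and the N copies, at 869 kb, both had a median partner of TRAJ22. The 33 names without these letters that lie among the repeated subgroups, at 614 kb, had TRAJ34. The 7 names upstream of the first D copy had TRAJ24, and the 5 single names nearest the TRAJ genes TRAJ52.

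The 6 farthest names, TRAV1, TRAV2, TRAV3-1, TRAV5-1, TRAV6-1 and TRAV7-1, joined to TRAJ58 to TRAJ39 in 2.703 to 11.5% of clonotypes. The 6 nearest, TRAV14-3, TRAV3-4, TRAV17, TRAV18, TRAV19 and TRAV21-DV12, did so in 82.5 to 100%. TRAV21-DV12 did so in 56 of 59 clonotypes (94.9%) and TRAV19 in 81 of 89 (91.0%). TRAV18, with 2 clonotypes, is the name at 100%.

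**Figure D4:**
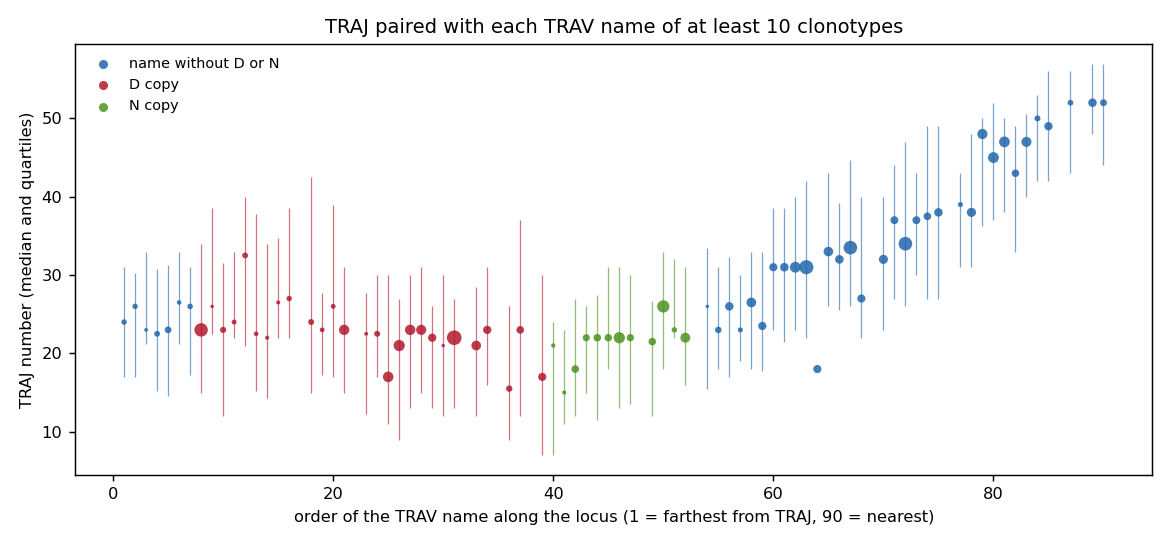
Median TRAJ number with quartiles (y axis) of the clonotypes of each TRAV name, in the order of the locus (x axis, 1 farthest from and 90 nearest to the TRAJ genes), for names with at least 10 clonotypes and with dot size by clonotype number. Medians of D copies (red) and N copies (green) run from TRAJ15 for TRAV6N-5 to 32.5 for TRAV7D-4, names near the TRAJ genes reach TRAJ52, and the dot apart at TRAJ18 is TRAV11.

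The TRAJ positions of the 2 alpha chains of a cell were correlated. Among called cells with 2 TRA contigs, 775 distinct pairs of chains had TRAJ genes a median of 8 steps apart (quartiles 4 and 16), and 36.9% lay within 5 steps; no value for unrelated chains was computed. The Spearman correlation was 0.441 for the TRAJ positions and 0.158 for the TRAV positions of the chains. Genes of the recombination machinery, read over all called CD8 and CD4 cells of the sets, ranged from 0 UMIs to detection in 22.9% of cells. Rag1 and Rag2, the recombinase, had 0 UMIs in both classes on both days. Dntt, which adds bases at the joint, had 8 UMIs in CD8 cells on day 13 and 11 on day 19, and 0 in CD4 cells. Lig4 had a UMI in 1.90 to 2.49% of the cells of each class and day. Xrcc4, Xrcc5, Xrcc6, Prkdc, Dclre1c, Poll and Polm had one in 7.96 to 22.9%.

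Of the 3870 possible pairs of names 2058 were seen, and 1 stood far above the rest. TRAV11 with TRAJ18, the pair of invariant NKT cells, had 72 clonotypes, which was 88.9% of TRAV11, ahead of TRAV3D-3 with TRAJ22 at 38. It made up 47 clonotypes on day 13 (1.02%, 0.747 to 1.35%) and 25 on day 19 (1.29%, 0.836 to 1.90%). All 72 had a CDR3 of 15 residues, and 7 nucleotide sequences encoded them. The 4 commonest on both days are shown because they differ only at the marked joint, the capitals being bases outside the shared TRAV11 start and TRAJ18 end.
TRAV11 to TRAJ18, 30 clonotypes: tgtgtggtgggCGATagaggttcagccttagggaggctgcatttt
TRAV11 to TRAJ18, 15 clonotypes: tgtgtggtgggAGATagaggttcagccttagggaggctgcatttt
TRAV11 to TRAJ18, 14 clonotypes: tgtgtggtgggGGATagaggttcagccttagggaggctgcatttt
TRAV11 to TRAJ18, 7 clonotypes: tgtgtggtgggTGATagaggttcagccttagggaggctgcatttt
The expression data of these cells were as follows. Of 40 called cells, 29 had neither Cd4 nor Cd8 UMIs, 7 were CD4 and 4 CD8. Zbtb16, the factor that directs innate-like T cells, had a UMI in 62.5% of them and in 0.671% of 4619 other paired cells, at median depths of 7512 and 8960 UMIs. Klrb1c, the NK1.1 antigen, was at 42.5 and 7.38%, with 26.1% of these cells on day 13 and 64.7% on day 19. Il18r1, a cytokine receptor subunit, was at 42.5 and 30.8%. The commonest beta chain subgroups were TRBV12 with 22 of the 72 clonotypes (18.8% of others), and TRBV13 and TRBV29 with 18 each (12.9 and 4.83% of others). Each beta chain was filed under the leading TRBV number of its name, so a name holding more than 1 such number would count only under the leading one. TRAV1 with TRAJ33, the pair of MAIT cells, had 4 clonotypes on day 13, all in CD8 cells, and 0 on day 19, which allows up to 0.155%.

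Mean CDR3 length was close in the 2 classes, and the spread was wider in CD8. Over all clonotypes it was 13.6 ± 1.33 residues (SD, n = 6567), from 7 to 19. CD8 had 13.66 ± 1.35 and CD4 13.66 ± 1.19, and the difference of CD8 minus CD4 was -0.0023 residues (-0.106 to 0.102), an interval from the standard errors over clonotypes. The SD was larger in CD8 in 8 of 8 sets. A CDR3 of 12 or fewer residues was found in 19.0% of CD8 (17.4 to 20.8%) and 14.5% of CD4 clonotypes (12.1 to 17.3%), and one of 16 or more in 8.05% (6.91 to 9.30%) and 5.35% (3.83 to 7.24%). Day 19 minus day 13 in CD8 was 0.0123 residues (-0.107 to 0.131). Foxp3-positive clonotypes had 13.58 and Foxp3-negative ones 13.71 residues, and expanded and single CD8 clonotypes 13.63 and 13.66.

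More of the variance in length lay between TRAJ genes than between TRAV subgroups. TRAJ genes held 28.7% of the variance in length and TRAV subgroups 10.1%. Means ran from 12.4 residues for TRAJ31 to 15.2 for TRAJ52. Among subgroups of at least 30 clonotypes, TRAV8 had 12.98 and TRAV15 15.26, and TRAV16 had 14.76. Within the same TRAJ gene CD8 was 0.0837 residues longer on average.

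**Figure D5:**
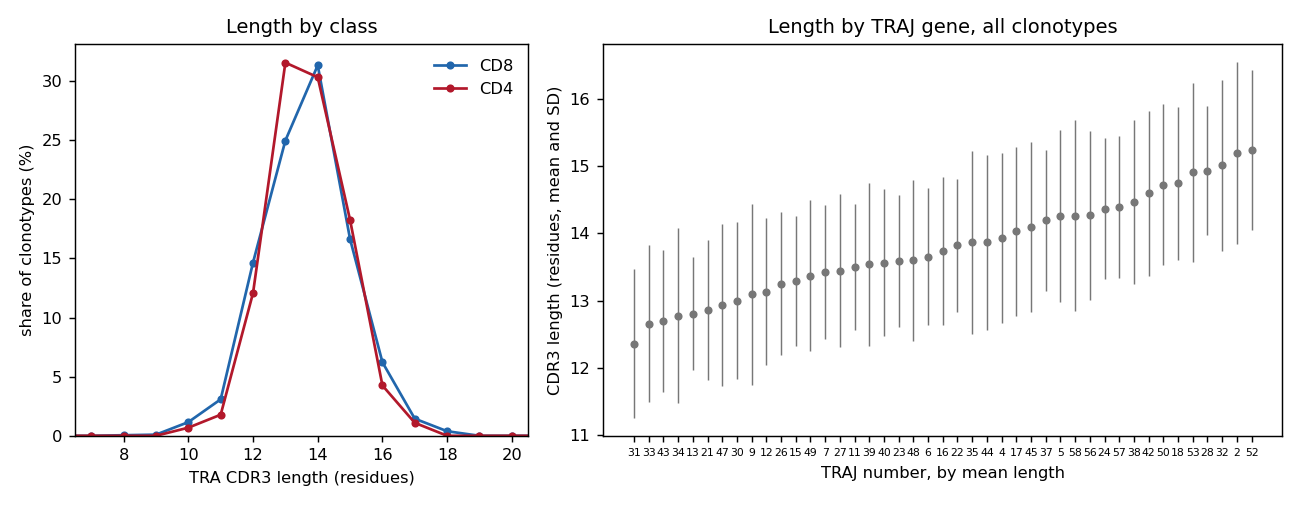
Left, share of clonotypes (%, y axis) by TRA CDR3 length (residues, x axis) in CD8 (blue) and CD4 (red). Right, mean length with SD (y axis, which does not start at 0) for each TRAJ gene in order of its mean (x axis); CD8 is higher at both ends of the left panel, and the right panel runs from 12.4 for TRAJ31 to 15.2 for TRAJ52.

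Alpha chains recurred between the days more than beta chains did. Of 4424 distinct TRA CDR3 nucleotide sequences on day 13 and 1860 on day 19, 124 occurred on both days (2.80 and 6.67%), against 22 TRB sequences (0.479 and 1.15%) and 12 paired clonotypes. Of the 124, 117 were joined to 2 or more TRB chains, and no shared TRA sequence had a barcode in common between the days. Their joints were short: 2.82 bases on average lay outside the shared TRAV start and TRAJ end, against 4.34 in sequences of 1 day. TRAJ22 ended 15.3% of the shared sequences and 5.70% of the others, and 5 were of the TRAV11 with TRAJ18 pair. The commonest outside that pair are shown, with capitals as above.
TRAV14D-2 to TRAJ22, 12 clonotypes: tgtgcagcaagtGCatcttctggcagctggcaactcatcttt
TRAV3D-3 to TRAJ22, 9 clonotypes: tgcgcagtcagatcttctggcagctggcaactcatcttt
TRAV3D-3 to TRAJ22, 7 clonotypes: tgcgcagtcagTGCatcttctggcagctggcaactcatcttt
TRAV7D-2 to TRAJ9, 6 clonotypes: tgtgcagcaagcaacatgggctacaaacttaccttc
The TRAV3D-3 sequence with 9 clonotypes has no base outside the shared ends, and all 9 were CD8. Each sequence is listed under its commonest TRAV name: the second TRAV3D-3 sequence was read with 2 names and the TRAV7D-2 sequence with 3. The TRAV14D-2 sequence was read with 6 TRAV names and had 5 CD8 and 3 CD4 clonotypes.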

How the data were processed

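Receptor contigs and gene UMIs were taken from the deposited tables of the 2 days. The deposited matrix files give UMI counts of each gene in each barcode, not normalized, and the deposited contig tables hold UMI counts per assembled contig. The submitters' processing notes name Cell Ranger 4.0.0, STAR 2.7.5c, bcl2fastq 2.20, R 4.1.2, Seurat and build mm10, with no role or order. Segment positions come from RefSeq (GRCm38.p6), with which all 133 names matched.

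A barcode was called a cell if its UMIs reached 10% of the value at percentile 99 among the top 10000 barcodes, with 500 or more genes and at most 10% mitochondrial UMIs, a minimum of 5674.1 UMIs on day 13 and 5286.8 on day 19. This kept 3782 and 3083 barcodes of the contig tables, with medians of 8610 and 10421 UMIs. No doublet caller was run. Cells with other than 1 TRA and 1 TRB contig formed no clonotype, but entered the depths, marker levels, Foxp3 shares, Trav UMI shares and counts of 2 chains. Shares have exact Clopper-Pearson intervals and ratios exact intervals of 2 Poisson counts, and PCR and sampling of mice are not covered by them. Calculations used Python 3.11.15, pandas 2.3.3 and scipy 1.17.1 and were checked on simulated data.

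Named were the 10 commonest TRAV and TRAJ names, the most and least used subgroups, up to 5 subgroups and TRAJ genes with the highest and 5 with the lowest ratio per comparison, the 6 nearest and farthest TRAV names, the NKT and MAIT pairs, TRAV4, TRAV9, TRAV12 and TRAV14, the 5 largest clonotypes of each day and up to 10 TRA sequences shared between days. Any other name in the text was chosen after its values were seen. The members and lists were chosen with earlier results of these data known. Alternatives changed the unit, chains, contig and class minimums, cell filter, ratio, clonotype minimum and TRAV level, and left out each set.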

Additional observations from a re-analysis of the deposited data

Results flagged for a closer look

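TRAJ17 had opposite class differences on the 2 days. Its CD8 to CD4 ratio of clonotype shares was 0.387 on day 13, where CD4 was higher in 4 of 4 sets. The counts were 19 of 1301 CD8 (1.46%) and 15 of 398 CD4 clonotypes (3.77%). On day 19 the ratio was 4.06, and CD8 was higher in 4 of 4 sets. The counts there were 19 of 774 CD8 (2.45%) and 2 of 331 CD4 clonotypes (0.604%), so the day 19 ratio rests on 2 CD4 clonotypes. The difference between the days was not tested, and the sets are not known to be replicates.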

How the results depend on the processing

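Of 206 alternative values of the comparison results 166 stayed and 40 moved, and of 450 values of single members 444 stayed, 5 moved and 1 reversed, namely TRAJ27 in CD8 over CD4, at 1.29 per cell. Outside these, TRAJ27 and TRAJ12 in expanded over single CD8 clonotypes, TRAJ45 in CD8 over CD4 (0.8287) and TRAV5 by expansion (1.05) also changed direction per cell. Counts of differing subgroups or genes moved as follows, with the cause not tested beyond what each setting changes. With 1 value per cell, 16 TRAJ genes differed between days in CD8, and 3 TRAV subgroups and 4 TRAJ genes by Foxp3. With all TRA chains, 3 TRAJ genes differed between days. With contigs of at least 3 UMIs, or classes by at least 2 UMIs, 1 TRAJ gene differed by Foxp3. With every barcode of the sets, 0 TRAV subgroups differed between days, 11 TRAJ genes by Foxp3 and 3 TRAV subgroups by expansion. With a ratio of at least 2, the counts for TRAV and TRAJ were 4 and 9 by class, 0 and 0 by day, 0 and 1 by Foxp3 and 2 and 13 by expansion. With at least 15 clonotypes, 3 and 8 differed by Foxp3. With single TRAV names, 23 differed by class, 6 by day, 0 by Foxp3 and 11 by expansion. Taking the TRAV subgroup number in place of the position gave a correlation of 0.111.

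Chosen after seeing the data, cells with at most 1 myeloid UMI left 0 TRAJ genes by Foxp3, since fewer reached 30 clonotypes. Day 13 alone gave 3 TRAV subgroups and 0 TRAJ genes by Foxp3 and 9 TRAJ genes by expansion. Day 19 alone gave 9 TRAJ genes by class, 1 by Foxp3 and 6 by expansion. Leaving out 1 set at a time gave 6 to 8 TRAV subgroups and 13 to 19 TRAJ genes by class, 2 to 3 and 2 to 7 by day, 1 to 2 and 1 to 2 by Foxp3, 3 to 7 and 13 to 20 by expansion, and a correlation of TRAV and TRAJ position of 0.476 to 0.485. Without set 3 of day 13 the TRAJ counts were 2 by day and 13 by expansion, and without set 2 of day 19 there were 3 TRAV subgroups by expansion and 1 TRAJ gene by Foxp3. Over all alternatives run the ratio ranged from 2.20 to 3.96 for TRAV16 and from 0.253 to 0.432 for TRAJ37 by class, and from 4.46 to 7.55 for TRAJ7 by expansion. No paired analysis was possible because no comparison has a test: each day has 1 capture and the sets are not known to be replicates. For groups within the same sets, the number of sets with each direction is given instead.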

Other observations

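Cells without a TRA contig were not without Trav RNA. Of 517 called cells in the sets without a TRA contig, 60.5% had a Trav UMI, against 82.8% of 6348 with one. Trav3-3, singled out after its values were seen, had UMIs in 79 of the 517 (15.3%, 12.3 to 18.7%) and in 4.58% of the cells with a contig (4.08 to 5.13%), although only 46 TRA contigs were assigned to TRAV3-3.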
